A study of Mus musculus with 12 samples.

Results

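RNA for 9 genes of the growth hormone (GH) axis was read in the hypothalamic arcuate nucleus (ARC) of WT mice and of mice carrying the R299Q γ2 AMPK mutation. The 9 are the neuropeptide genes Ghrh, Sst and Gal, the transcription factor gene Gsx1, and the receptor genes Ghsr, Sstr1, Sstr2, Ghr and Igf1r. They were taken by gene symbol from a table of 38283 genes, each symbol matched 1 row, and all 9 passed the low-value filter (mean of at least 1 FPKM over the 12 libraries), as did 14017 genes in all. Values are in FPKM, which scale the fragments of a gene to transcript length and to library size. The mice were freely fed C57BL/6 males aged 8 weeks, either WT (n = 5) or homozygous for the R299Q knock-in in the γ2 subunit of AMPK, encoded by Prkag2 (Homo, n = 7). The allele is a germline change present in every tissue. Each library came from the laser-captured ARC of 1 mouse.

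Growth hormone-releasing hormone, made by ARC neurons, drives GH release from the pituitary, and somatostatin, made in periventricular neurons and in other cells of the ARC, restrains it. Ghrelin, the stomach hormone, acts through its receptor Ghsr on ARC neurons and raises both GH release and food intake, while GH and insulin-like growth factor 1 (IGF1) feed back on the hypothalamus through Ghr and Igf1r. The comparison of Homo with WT asks how far the RNA of these genes differed in a mouse line studied for overeating.

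Ordered by how many genes were above 0, the libraries fell into 2 sets at the widest gap. In 7 libraries (WT 1, WT 2 and Homo 1 to 5), 15742 to 16467 genes were above 0, and in the other 5 (WT 3 to 5, Homo 6 and Homo 7), 18141 to 18635 were. The sets are unevenly spread over the genotypes, so the genotype differences of the 9 genes are also given within them. In the set with more genes, Homo 6 and Homo 7 are the only Homo libraries. Their labels are worded differently from those of Homo 1 to 5. Whether these 2 libraries were prepared apart from the other Homo libraries was not tested. All 8 markers of ARC neurons were above 0 in every library, with a summed level of 1188 to 4051 FPKM in WT and 3111 to 4704 FPKM in Homo libraries (exact permutation test, p = 0.0821). That sum was lowest in WT 3, at 1188 FPKM, and next lowest in WT 4, at 2216 FPKM. The 4 markers of the ventromedial nucleus summed to 2.30 to 7.93 FPKM. Pituitary markers summed to 114 FPKM in WT 3, 68.4 FPKM in WT 5, 56.4 FPKM in Homo 7 and 9.37 FPKM in Homo 4, and to under 1 FPKM in the other 8. The same WT 3, WT 5 and Homo 7 libraries held the highest sums of blood markers (398, 585 and 354 FPKM). Markers of the periventricular and paraventricular nuclei ranged from 8.88 FPKM in WT 4 to 1030 FPKM in WT 5, where most of it was Oxt (646 FPKM) and Avp (380 FPKM). Prkag2 itself was at 7.73 to 22.5 FPKM in WT and 8.61 to 24.0 FPKM in Homo libraries (log2 fold change 0.03, limma adjusted p = 0.993). Since the knock-in changes 1 residue, that level does not check the genotype.

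The sequences before the start sites of Ghrh, Sst and Sstr2 are shown because they hold short elements known from promoters of hormone genes. RefSeq (GRCm38.p6) gave promoter windows for 8 of the 9 genes, 10 windows in all. In the 250 bases before each start, 3 sets of letters were searched: TGACGTCA, the cAMP response element, and TAATTA, a core that homeodomain proteins such as Gsx1 can bind, on both strands, and TATAAA, the TATA box, on the plus strand of the gene. Of 32851 mouse promoters, 1.55% held the first, 4.84% the second and 7.59% the TATA box. Ghrh has 2 start sites, and only the downstream one matched, with TAATTA at -243 and -153 and TATAAA at -31, counted in bases from the start. Its upstream bases (chr2:157337427-157337676, minus strand, no exon overlap) are, with these letters in capitals,
Ghrh, 250 bases before the start: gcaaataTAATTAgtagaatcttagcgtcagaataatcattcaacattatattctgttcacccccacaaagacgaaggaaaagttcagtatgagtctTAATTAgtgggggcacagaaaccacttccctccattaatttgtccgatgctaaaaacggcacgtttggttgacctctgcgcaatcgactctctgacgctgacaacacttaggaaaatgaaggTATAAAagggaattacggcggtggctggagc
The cAMP response element was found before Sst, at -48, and before Sstr2, at -58. The windows of 30 bases lie at chr16:23890874-23890903 on the minus strand and chr11:113619258-113619287 on the plus strand, and the capitals mark the element. The 250-base window of Sst lies partly in an exon of the GENCODE model, which starts further upstream (23890958) than the RefSeq one. All 30 bases of Sst shown lie downstream of that GENCODE start, so -48 holds for the RefSeq start only.
Sst: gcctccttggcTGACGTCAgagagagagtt
Sstr2: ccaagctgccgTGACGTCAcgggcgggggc
None of the 3 sets of letters lay in the windows of Gal, Gsx1, Ghsr, Ghr or Igf1r. A match describes the letters only, and binding was not measured in these mice.

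None of the 9 genes passed the comparison of Homo with WT at an adjusted p under 0.05 in limma's moderated test on log2(FPKM + 1). Across all 14017 genes, 1 passed that threshold (0.00713%). At an unadjusted p under 0.05 the count was also 0 of 9 genes, against 5.55% of all genes in either direction (3.05% higher and 2.50% lower in Homo). Genotypes overlapped for every one of the 9, as for all but 0.221% of the genes tested. In Homo, 5 of the 9 had a lower mean log2 value, as did 50.7% of all genes, and the median log2 fold change of the 9 was -0.02 against -0.01 over all genes. The largest difference was in Gsx1, with a log2 fold change of -0.93 (95% interval -1.92 to 0.06), and the largest positive one in Ghrh, at 0.44 (-0.41 to 1.29). The order changed when libraries were weighted by their estimated noise (limma array weights), where Gsx1 was at -0.39, Ghrh at 0.71 and Gal at 0.66, still with no unadjusted p under 0.05. For 5 genes (Sst, Ghr, Sstr1, Sstr2 and Igf1r) the 95% interval stayed within 2-fold in both directions, and for the other 4 it reached beyond 2-fold. In bulk tissue, fewer cells of a type and less RNA per cell cannot be told apart.

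**Figure D1:**
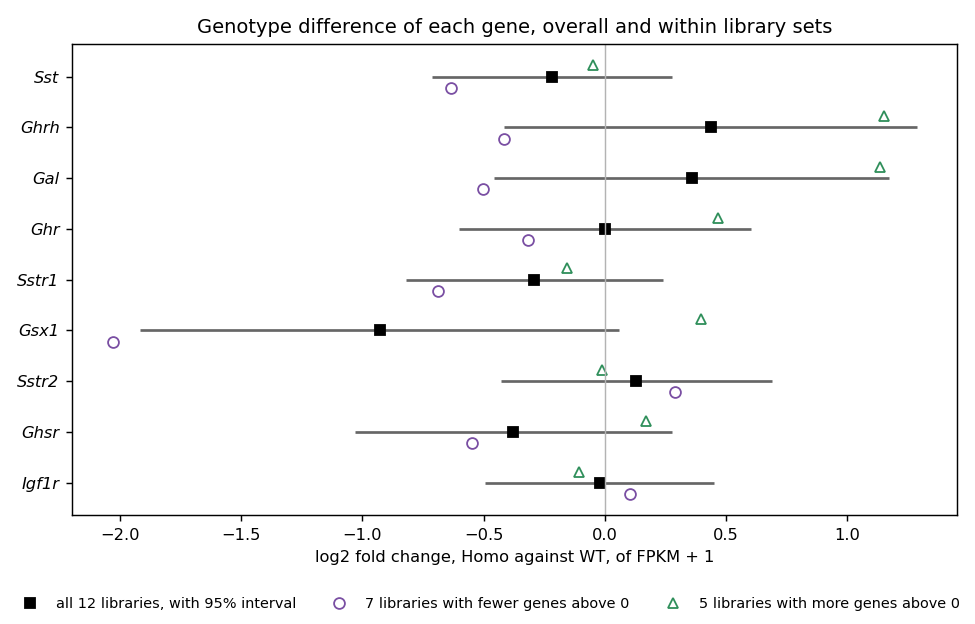
Log2 fold change of FPKM + 1, Homo against WT, for the 9 genes (horizontal axis; 1 gene per row). Black squares with bars are the 12 libraries with their 95% interval, purple circles the 7 libraries with fewer genes above 0 and green triangles the 5 with more, and every interval crosses 0, with circle and triangle on opposite sides of 0 for 7 genes. Over all genes tested, the medians in the 2 sets were -0.08 and 0.13.

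Among the releasing and inhibiting peptides, Ghrh (GRCm38 chr2:157329497-157347506, minus strand) encodes GH-releasing hormone itself. WT 1 to 5 had 409, 481, 97.4, 146 and 418 FPKM, and Homo 1 to 7 had 176, 293, 319, 531, 464, 391 and 418 FPKM. The WT libraries fell apart, with WT 3 and WT 4 below every Homo library and the other 3 among the highest, and 1 Homo library lay above the WT maximum. Means were 310 ± 175 FPKM (SD, n = 5) in WT and 370 ± 118 FPKM (SD, n = 7) in Homo (log2 fold change 0.44 ± 0.40 (SE), limma adjusted p = 0.920). Exact permutation of the genotypes gave p = 0.367, and p = 0.576 within the library sets. WT had the higher mean in the set with fewer genes (445 against 356 FPKM), Homo in the set with more (404 against 220 FPKM). With 1 library left out the log2 fold change ranged from 0.09 without WT 3 to 0.66 without WT 2. WT 3 and WT 4, with the lowest Ghrh, also had the lowest sums of ARC markers, and their part in the result was not tested.

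Sst (chr16:23889573-23890958, minus strand), the somatostatin gene, had the highest level of the 9. WT 1 to 5 had 2004, 2003, 714, 1490 and 1450 FPKM, and Homo 1 to 7 had 1506, 1092, 1304, 1184, 1412, 1233 and 1013 FPKM. All but 1 of the Homo libraries were below the WT median, yet WT 3 was lower than all of them. The mean was 1532 ± 529 FPKM (SD, n = 5) in WT and 1249 ± 173 FPKM (SD, n = 7) in Homo (log2 fold change -0.22 ± 0.23 (SE), limma adjusted p = 0.923). Exact permutation gave p = 0.398 over all libraries and p = 0.133 within sets. In the set with fewer genes, WT 1 and WT 2 had a mean of 2003 FPKM and the 5 Homo libraries of 1300 FPKM (log2 fold change -0.63, limma adjusted p = 0.782). In the other set the means were 1218 and 1123 FPKM. With 1 library left out the log2 fold change ranged from -0.47 without WT 3 (limma adjusted p = 0.988) to -0.10 without WT 1 or without WT 2. The summed markers of the periventricular and paraventricular nuclei were highest in WT 5 (Sst 1450 FPKM) and lowest in WT 4 (Sst 1490 FPKM). In WT 5 that sum was mostly Oxt (646 FPKM) and Avp (380 FPKM), while Trh was at 3.87 FPKM and Crh at 0. Any relation of Sst to tissue of these nuclei was not tested.

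Gal (chr19:3409915-3414544, minus strand) encodes galanin, a peptide that many GHRH neurons also make. Its levels were 172, 170, 44.8, 66.2 and 122 FPKM in WT 1 to 5 and 65.6, 116, 80.0, 172, 241, 170 and 147 FPKM in Homo 1 to 7. WT 3 was the lowest library, Homo 1 and WT 4 came next, and Homo 5 was the highest. Means of 115 ± 58.4 FPKM (SD, n = 5) and 142 ± 60.3 FPKM (SD, n = 7) gave a log2 fold change of 0.36 ± 0.38 (SE, limma adjusted p = 0.923), with exact permutation p = 0.455 over all libraries and 0.614 within sets. As for Ghrh, WT was higher in the set with fewer genes (171 against 135 FPKM) and lower in the other (77.7 against 158 FPKM). Leaving out 1 library gave log2 fold changes from 0.07 without WT 3 to 0.55 without WT 1.

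Gsx1 (chr5:147188696-147190947, plus strand) encodes a homeodomain factor required for GHRH neurons to form, and it showed the largest difference in size. Levels were 12.03, 12.07, 4.67, 2.46 and 6.62 FPKM in WT 1 to 5, against 0.800, 0.519, 3.09, 4.61, 4.30, 7.66 and 4.64 FPKM in Homo 1 to 7. WT 1 and WT 2 lay above every other library, Homo 1 and Homo 2 below every other, and the remaining 8 were intermixed. The Homo mean of 3.66 ± 2.47 FPKM (SD, n = 7) was 0.484 times the WT mean of 7.57 ± 4.35 FPKM (SD, n = 5). The log2 fold change of -0.93 ± 0.46 (SE) did not pass (unadjusted limma p = 0.0636, adjusted p = 0.899), nor did the exact permutation test (p = 0.110, within sets p = 0.124). The difference came with the set of fewer genes, where WT 1 and WT 2 had a mean of 12.05 FPKM and the 5 Homo libraries of 2.67 FPKM. In the other set Homo was the higher, at a mean of 6.15 against 4.58 FPKM. The genotype difference in the set with more genes minus that in the set with fewer was 2.43 on the log2 scale (interaction term, limma adjusted p = 0.876). From the smallest steps in FPKM, the Gsx1 value corresponded to about 5.2 fragments in Homo 1 and 6.1 in Homo 2, against 23.2 to 143 in the others, so the 2 lowest values are also the least precise.

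**Figure D2:**
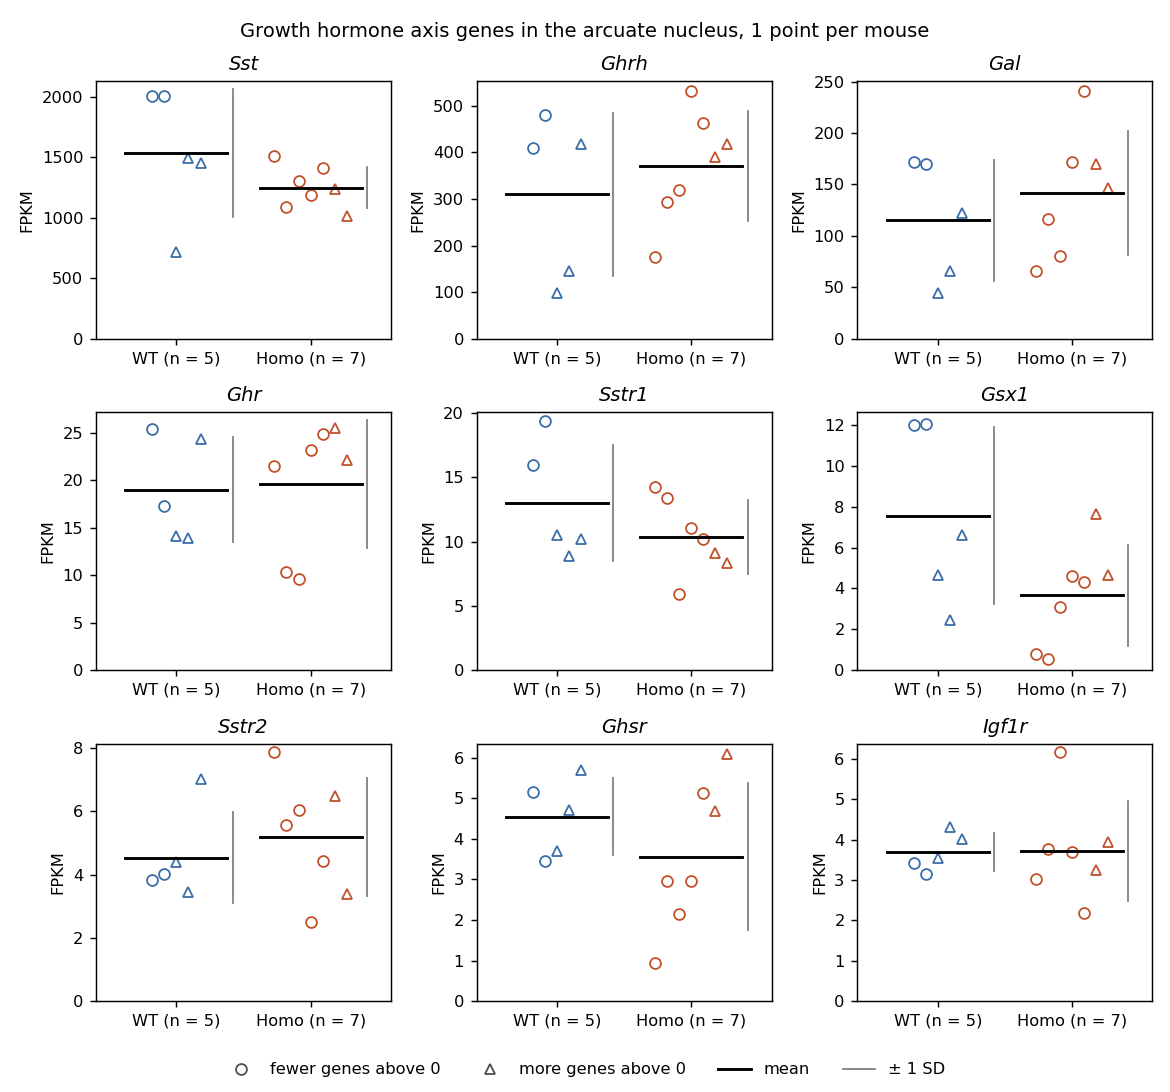
FPKM of each of the 9 genes (vertical axes, linear from 0, a separate scale per gene), with 1 point per mouse for WT (n = 5) and Homo (n = 7), circles for the 7 libraries with fewer genes above 0 and triangles for the 5 with more. Thick lines are group means and thin lines ± 1 SD, and for every gene the points of both genotypes overlap.

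Among the receptors, Ghsr (chr3:27371351-27378010, plus strand), the ghrelin receptor, was low in every mouse. It measured 5.16, 3.45, 3.71, 4.72 and 5.69 FPKM in WT 1 to 5, against 0.953, 2.97, 2.14, 2.97, 5.12, 4.69 and 6.09 FPKM in Homo 1 to 7. Homo 1 to 4 lay below the lowest WT library, and Homo 7 was the highest of the 12. The mean was 4.55 ± 0.952 FPKM (SD, n = 5) in WT and 3.56 ± 1.81 FPKM (SD, n = 7) in Homo (log2 fold change -0.38 ± 0.30 (SE), 95% interval -1.03 to 0.27, limma adjusted p = 0.919). Exact permutation gave p = 0.251, and p = 0.457 within sets. The 4 low Homo libraries were all in the set with fewer genes, where WT had a mean of 4.31 and Homo of 2.83 FPKM. In the other set the means were 4.71 and 5.39 FPKM. Fragments behind these values were estimated at 16.6 to 102 in the set with fewer genes and 179 to 302 in the other.

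The somatostatin receptors Sstr1 and Sstr2 are the forms through which somatostatin is known to act on ARC neurons. Sstr1 (chr12:58211772-58214444, plus strand) was at 16.0, 19.4, 10.5, 8.91 and 10.2 FPKM in WT 1 to 5, against 14.2, 13.4, 5.94, 11.1, 10.2, 9.14 and 8.32 FPKM in Homo 1 to 7. WT 1 and WT 2 were the highest of the 12 libraries. Its means were 13.0 ± 4.49 FPKM (SD, n = 5) and 10.3 ± 2.89 FPKM (SD, n = 7), a log2 fold change of -0.29 ± 0.25 (SE, limma adjusted p = 0.919). The exact permutation test gave p = 0.259 over all libraries and p = 0.0429 with splits kept within the library sets, where the smallest p possible was 0.00476, and this second p was 1 of 9 such tests and unadjusted. In the set with fewer genes, WT 1 and WT 2 lay above every Homo library (WT mean 17.7, Homo mean 10.98 FPKM), as they also did for Sst and Gsx1. The share of all genes without overlap in that set was not counted, so this is not read as particular to Sstr1. In the set with more the means were 9.87 and 8.73 FPKM. Sstr2 (chr11:113619342-113626028, plus strand) was at 3.82, 4.01, 4.40, 3.44 and 7.01 FPKM in WT 1 to 5, against 7.87, 5.55, 6.03, 2.50, 4.44, 6.48 and 3.39 FPKM in Homo 1 to 7. Both genotypes spanned most of the range, and WT 5 stood above the other WT libraries. The means of 4.54 ± 1.43 FPKM (SD, n = 5) and 5.18 ± 1.86 FPKM (SD, n = 7) differed by less than the spread between mice (log2 fold change 0.13 ± 0.26 (SE), limma adjusted p = 0.973, exact permutation p = 0.598). The annotation places 1 other gene over Sstr2, and since the library kit does not mark strand, its value is uncertain to that extent.

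Ghr and Igf1r carry the feedback of GH and of IGF1. Ghr (chr15:3317760-3583492, minus strand) was at 25.4, 17.2, 14.1, 13.9 and 24.4 FPKM in WT 1 to 5, against 21.5, 10.3, 9.62, 23.2, 24.9, 25.5 and 22.1 FPKM in Homo 1 to 7. Homo 2 and Homo 3 were the lowest of the 12, and the other 5 Homo libraries lay between 21.5 and 25.5 FPKM. The mean was 19.0 ± 5.51 FPKM (SD, n = 5) in WT and 19.6 ± 6.73 FPKM (SD, n = 7) in Homo, the log2 fold change 5.61e-05 with a 95% interval of -0.60 to 0.60. Exact permutation gave p = 0.999. Igf1r (chr7:67952827-68233668, plus strand) was at 3.43, 3.14, 3.54, 4.33 and 4.01 FPKM in WT 1 to 5, against 3.04, 3.78, 6.18, 3.70, 2.18, 3.25 and 3.96 FPKM in Homo 1 to 7. Homo 3 was the highest library and Homo 5 the lowest, with WT between them. It had the lowest coefficient of variation of the 9 genes, 25.8% over the 12 libraries, against 71.4% for Gsx1. Means of 3.69 ± 0.473 FPKM (SD, n = 5) and 3.73 ± 1.24 FPKM (SD, n = 7) gave a log2 fold change of -0.02 (95% interval -0.49 to 0.45, exact permutation p = 0.896).

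By level per length, the peptides stood far above their receptors. The longest annotated transcripts had 516 to 788 bases for the peptides and 2014 to 11409 for the receptors, so these levels are not fragment numbers. Estimated fragments were 2026 to 8868 for Sst and 16.6 to 302 for Ghsr. The means over 12 libraries were 1367 FPKM for Sst, 345 for Ghrh, 131 for Gal, 19.4 for Ghr, 11.4 for Sstr1, 5.29 for Gsx1, 4.91 for Sstr2, 3.97 for Ghsr and 3.71 for Igf1r, a 368-fold range. Sst ranked above 99.6% and Ghrh above 98.5% of the genes tested, while Ghsr ranked above 31.0% and Igf1r above 29.1%. Each gene was compared with its neighbor in this order by an exact sign-flip permutation test over the 12 libraries on log2(FPKM + 1). The order was taken from these same libraries, so the test describes how steady it was among them. In the 5 WT libraries alone the smallest sign-flip p possible was 0.0625, so no neighbors could pass there (smallest adjusted p 0.1). Sst exceeded Ghrh in 12 of 12 libraries by 2.09 on the log2 scale, Ghrh exceeded Gal in 12 of 12 by 1.39, Gal exceeded Ghr in 12 of 12 by 2.61, and Sstr1 exceeded Gsx1 in 12 of 12 by 1.20 (each with an adjusted exact p of 0.000977, from 0.000488, the smallest the test can give). Ghr exceeded Sstr1 in 10 of 12 libraries by 0.70 (exact permutation p = 0.00244, adjusted 0.00391). The 4 genes at the low end were not separated. Gsx1 and Sstr2 differed by -0.13 (higher in 6 of 12), Sstr2 and Ghsr by 0.28 (7 of 12) and Ghsr and Igf1r by 0.02 (8 of 12), with adjusted exact p of 0.811, 0.358 and 0.899.

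Of the 3 ratios taken within a library, Ghrh to Sst set the opposing arms of the axis against each other. The log2 ratio of Ghrh to Sst was -2.29, -2.06, -2.86, -3.34 and -1.79 in WT 1 to 5 and -3.09, -1.90, -2.03, -1.15, -1.60, -1.66 and -1.28 in Homo 1 to 7. Of the 7 Homo libraries, 6 were above the WT median, and Homo 1 was lower than all WT libraries except WT 4. The means were -2.47 ± 0.63 (SD, n = 5) and -1.82 ± 0.64 (SD, n = 7), a difference of 0.65 (exact permutation p = 0.114, adjusted over the 3 ratios 0.170). With each library set centered on its own mean, the difference was 0.60 (exact permutation within sets, p = 0.138). Centering shrinks a difference when the sets are unevenly spread over the genotypes, so this is not the difference inside a set. With 1 library left out the uncentered difference ranged from 0.43 without WT 4 (exact permutation p = 0.276) to 0.87 without Homo 1 (exact permutation p = 0.0130, unadjusted, the only one of the 12 under 0.05). The ratio of Sstr1 to Sstr2 averaged 1.31 ± 0.62 (SD, n = 5) in WT and 0.89 ± 0.57 (SD, n = 7) in Homo, with 6 of 7 Homo libraries below the WT median (difference -0.42, exact permutation p = 0.242). Centered by set in the same way, the difference was -0.54 (exact permutation within sets, p = 0.0762). Leaving out 1 library gave uncentered differences from -0.63 without WT 5 to -0.24 without WT 2. The ratio was lowest in Homo 3, at -0.02, and highest in WT 2, at 2.03. Ghsr was also set against Agrp, the gene of the appetite-raising agouti-related peptide made by neurons that respond to ghrelin. That log2 ratio was -6.34, -6.29, -5.28, -5.58 and -4.96 in WT 1 to 5 and -7.92, -7.06, -7.37, -7.24, -6.25, -5.50 and -5.29 in Homo 1 to 7. Homo 1 to 4 were below all WT libraries, but within the set of 5 libraries with more genes both genotypes lay between -5.58 and -4.96. The means of -5.69 ± 0.61 (SD, n = 5) and -6.66 ± 1.00 (SD, n = 7) differed by -0.97 (exact permutation p = 0.0909, adjusted 0.170). Centered by set, they differed by -0.47 (exact permutation within sets, p = 0.124). With 1 library left out the uncentered difference ranged from -0.76 without Homo 1 (exact permutation p = 0.145) to -1.20 without Homo 7 (exact permutation p = 0.0390, unadjusted, the only one of the 12 under 0.05).

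**Figure D3:**
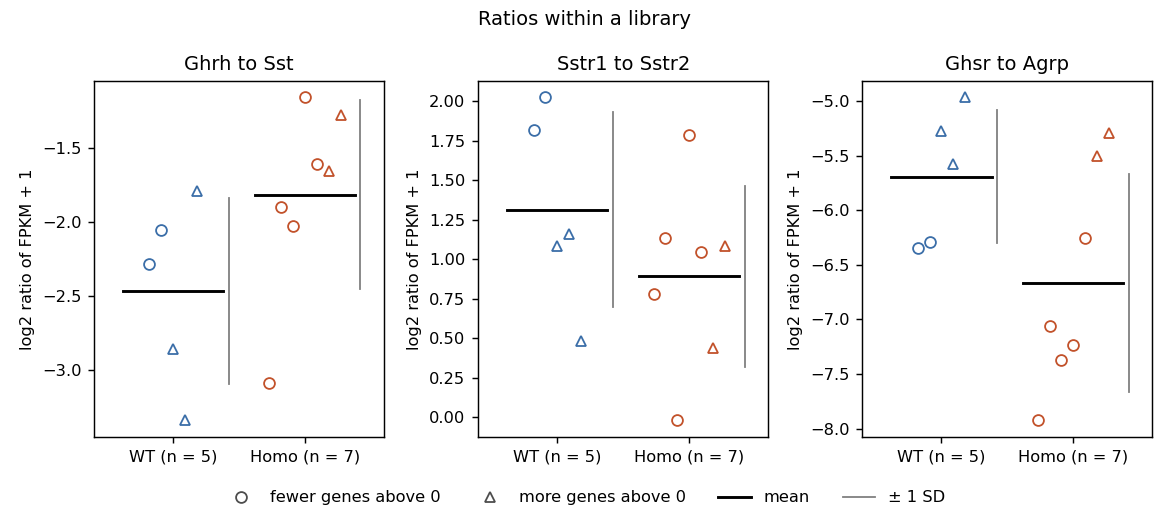
Log2 ratio of FPKM + 1 within each library for Ghrh to Sst, Sstr1 to Sstr2 and Ghsr to Agrp (vertical axes), 1 point per mouse for WT (n = 5) and Homo (n = 7), with circles for the 7 libraries with fewer genes above 0 and triangles for the 5 with more. Thick lines are means and thin lines ± 1 SD, and the genotypes overlap in all 3 panels.

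Across the libraries of both genotypes, Ghrh and Gal varied together. Of 36 pairs among the 9 genes, this was the only one with an adjusted permutation p under 0.05 (Pearson r = 0.92 over 12 libraries, permutation p = 5e-05, adjusted 0.0018, Spearman rho = 0.84, permutation p = 0.00104, adjusted 0.0374). Without WT 3 and WT 4, the libraries farthest from the median of Ghrh, r was 0.85. Within the 7 libraries with fewer genes r was 0.88 (permutation p = 0.00646, adjusted 0.0775), and the set of 5 is too small for a value of its own. The pair was not singular in those 7. Ghrh with Sstr2 (r = -0.91, permutation p = 0.00398) and Gal with Ghsr (r = 0.91, permutation p = 0.00515) had the same adjusted p there. Over the 12 libraries their r was -0.18 and 0.45. Ghrh and Gal both come from ARC neurons and the libraries differ in the sum of ARC markers, whose part in the relation was not tested. Over the 12 libraries, another 3 pairs had an unadjusted permutation p under 0.05. These were Ghr with Igf1r (r = -0.62, p = 0.0256, rho = -0.51, permutation p = 0.0933), Ghsr with Gsx1 (r = 0.59, p = 0.0443, rho = 0.45, permutation p = 0.139) and Gal with Ghr (r = 0.58, p = 0.0497, rho = 0.68, permutation p = 0.0184), each with an adjusted p of 0.361 for r. Without the 2 libraries farthest from the median, r fell to -0.35 for Ghr with Igf1r and to 0.34 for Ghsr with Gsx1, so these rest on those libraries, while for Gal with Ghr it was 0.73. Ghrh and Sst gave r = 0.45 (permutation p = 0.146, rho = 0.17, permutation p = 0.590) and 0.07 without WT 3 and WT 4.

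**Figure D4:**
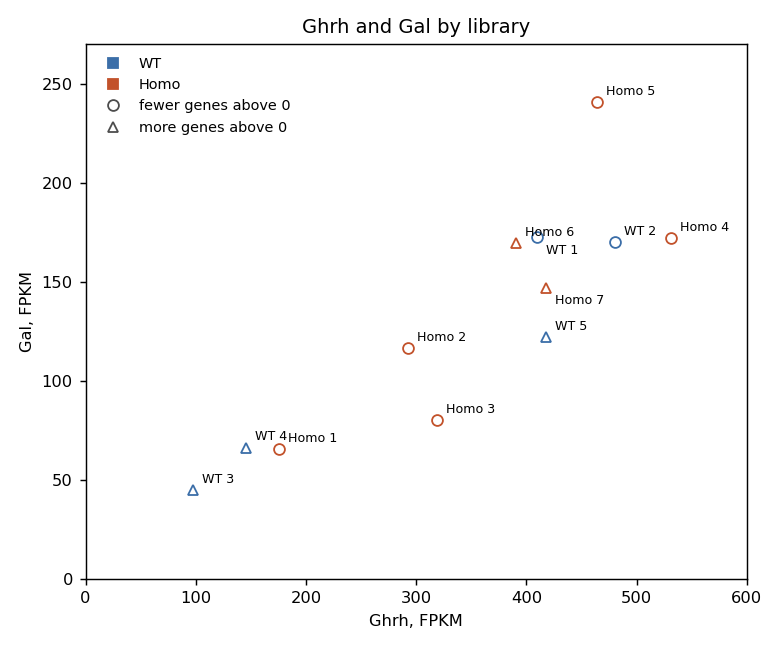
Gal (vertical axis, FPKM) against Ghrh (horizontal axis, FPKM), with 1 labeled point per library, blue for WT and orange for Homo, circles for the 7 libraries with fewer genes above 0 and triangles for the 5 with more. Points of both genotypes rise along one band from WT 3 (97.4 and 44.8 FPKM) to Homo 5 (464 and 241 FPKM).

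The genes whose log2 levels followed those of Ghrh, Gal, Ghsr and Sst most closely over the 12 libraries are given as a description. For Ghrh they were Rwdd2a (r = 0.93), Pomc (r = 0.92), the gene of the appetite-lowering proopiomelanocortin of the ARC, and Ppp2r2c (r = 0.90). For Gal they were Dok5 (r = 0.96), Rpusd3 (r = 0.94) and Lifr (r = 0.92), the last a receptor for leukemia inhibitory factor. Ghsr was closest to BC023829 and Trim35 (both r = 0.92) and Erp44 (r = 0.91), and Sst to Fam40a (r = 0.89), Arhgdia (r = 0.87) and Akr7a5 (r = 0.85). These are the highest of 14017 Pearson correlations for each gene, and the libraries also differ in depth and in their sum of ARC markers. Spearman rho was 0.59 for Arhgdia and for Akr7a5 with Sst and 0.75 for Pomc with Ghrh. For the rest it was 0.78 to 0.97.

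Signs of the genotype difference were opposite in the 2 sets for 7 of the 9 genes, all but Sst and Sstr1. The Homo side of the set with more genes was Homo 6 and Homo 7 alone. The WT side of the set with fewer genes was WT 1 and WT 2 alone. All genes together also leaned in opposite directions, with a median log2 fold change of -0.08 with fewer and 0.13 with more genes. The share of all genes with opposite signs was not counted, so the 7 are not read as particular to this axis. For genes not yet given by set, the log2 fold changes with fewer and with more genes were -0.32 and 0.47 for Ghr, 0.29 and -0.01 for Sstr2 and 0.10 and -0.11 for Igf1r, with exact permutation p within sets of 0.914, 0.590 and 0.976. The difference between sets was 1.64 on the log2 scale for Gal and 1.57 for Ghrh (interaction terms, each with a limma adjusted p = 0.876), and no gene of the 9 passed after adjustment. In a model with genotype and set, the set term of Sst (more minus fewer genes) was -0.48 on the log2 scale (limma adjusted p = 0.574). It averages over unlike genotypes. Mean Sst was 2003 FPKM with fewer and 1218 FPKM with more genes in WT, against 1300 and 1123 FPKM in Homo. With the set as a covariate, the log2 fold change between genotypes was -0.92 for Gsx1, -0.45 for Sstr1, -0.37 for Sst, 0.30 for Ghrh and 0.24 for Gal. Without WT 3, the library with the lowest sum of ARC markers, the log2 fold change was -1.03 for Gsx1, -0.43 for Ghsr, -0.35 for Sstr1, 0.13 for Sstr2, -0.09 for Ghr and -0.03 for Igf1r. Other single libraries moved some of these further. Ghsr lay between -0.50 without Homo 7 and -0.19 without Homo 1. Sstr1 was at -0.14 without WT 2 and -0.18 without Homo 3, and Sstr2 between 0.03 without Homo 1 and 0.27 without WT 5. How much of the set difference goes back to depth or dissection was not tested.

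The remaining genes of the pathway were read in 5 lists, and no gene of any list passed at an adjusted p under 0.05. Of 14 other ligands and receptors of the axis, 13 were in the table and 5 passed the low-value filter, 2 higher and 3 lower in Homo (median log2 fold change -0.10). Galr3 was not matched. Ghrhr, the receptor that Ghrh acts on in the pituitary, was listed at 0 in all 12 libraries, and Ghrl, the ghrelin gene, averaged 0.431 FPKM with 6 libraries at 0. Sstr5 was detected in every library at a mean of 0.946 FPKM. Prlr, the prolactin receptor, was the most abundant, at 31.3 ± 9.64 FPKM (SD, n = 5) in WT and 28.7 ± 7.15 FPKM (SD, n = 7) in Homo (limma adjusted p = 0.982). Gh, the pituitary hormone gene, was at 61.5 FPKM in WT 3, 64.5 in WT 5 and 54.5 in Homo 7, and at or near 0 in the others. Those 3 libraries had the highest sums of pituitary markers, a list that includes Gh. Galp, a galanin-like peptide of the ARC, reached 199 FPKM in a single Homo library and was at 0 in at least 1 library of each genotype.

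All 12 genes of GH receptor signaling were tested, 7 higher and 5 lower in Homo, with a median log2 fold change of 0.03 and no unadjusted p under 0.05. Stat3, a transducer of cytokine receptor signals, was at 36.7 ± 7.82 FPKM (SD, n = 5) in WT and 32.3 ± 10.8 FPKM (SD, n = 7) in Homo. Ptpn11, the phosphatase SHP2, was at 21.1 ± 7.73 and 21.6 ± 5.33 FPKM (SD, n = 5 and 7). The adaptor gene Sh2b1 was at 6.85 ± 2.13 and 7.16 ± 2.03 FPKM (SD, n = 5 and 7). Socs1, an inhibitor of JAK signaling, had the largest difference of the list (log2 fold change 0.94, 95% interval -0.23 to 2.10, limma adjusted p = 0.915), at 0.667 ± 0.684 and 3.02 ± 3.16 FPKM (SD, n = 5 and 7).

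In the IGF system, 13 of 19 genes were tested and 12 of them had a lower mean log2 value in Homo, as did 50.7% of all genes. The median log2 fold change was -0.20 against -0.01 over all genes. Whether the list differed as a whole was not tested. Only Grb10, an adaptor that restrains insulin and IGF1 receptor signaling, had an unadjusted p under 0.05, against 2.50% of all genes in that direction. Its level was 95.4 ± 23.6 FPKM (SD, n = 5) in WT and 68.0 ± 14.7 FPKM (SD, n = 7) in Homo (log2 fold change -0.48, 95% interval -0.91 to -0.04, unadjusted limma p = 0.0327, adjusted p = 0.899, exact permutation p = 0.0379). Its log2 fold change was -0.74 in the set with fewer genes and -0.36 in the set with more. Irs4, a docking protein abundant in the hypothalamus, was at 94.2 ± 16.4 and 90.2 ± 18.8 FPKM (SD, n = 5 and 7). Igfbp7 was at 18.3 ± 11.4 and 11.3 ± 5.23 FPKM (SD, n = 5 and 7). Igfbp1 and Igfals, known mainly from the liver, were listed at 0 in every library.

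Of 22 genes for partners and effectors of the ghrelin receptor, 21 were tested, 12 higher and 9 lower in Homo (median 0.02). Npy and Agrp, the appetite-raising peptides of one class of ARC neuron, had an unadjusted p under 0.05, both higher in Homo, against 3.05% of all genes in that direction. Npy was at 1015 ± 390 FPKM (SD, n = 5) in WT and 1472 ± 305 FPKM (SD, n = 7) in Homo (log2 fold change 0.60, limma adjusted p = 0.887), and Agrp at 301 ± 128 and 445 ± 130 FPKM (log2 fold change 0.60, limma adjusted p = 0.899), with exact permutation p of 0.0354 and 0.0909. Within the library sets the log2 fold changes were smaller for Agrp, at 0.31 with fewer and 0.29 with more genes (exact permutation p = 0.0714), and 0.22 and 0.65 for Npy (exact permutation p = 0.0857). Both are themselves ARC markers. Ucp2, a mitochondrial carrier that ghrelin is known to act through in these neurons, was at 284 ± 94.5 and 220 ± 72.9 FPKM (SD, n = 5 and 7, limma adjusted p = 0.915).

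Among genes co-expressed in GHRH neurons and transcription factors of the ARC, 17 of 18 were tested, 12 higher and 5 lower in Homo. The median log2 fold change was 0.19 against -0.01 over all genes, of which 50.7% were lower. Only Nts and Gad1 had an unadjusted limma p under 0.05, both higher in Homo, against 3.05% of all genes in that direction. Nts, the neurotensin gene, had the smallest p of the 5 lists, at 1.33 ± 1.21 FPKM (SD, n = 5) in WT and 3.49 ± 1.39 FPKM (SD, n = 7) in Homo (log2 fold change 1.05, 95% interval 0.30 to 1.80, unadjusted limma p = 0.00934, adjusted p = 0.783, exact permutation p = 0.0177). The set with fewer genes gave 1.21 and the set with more 1.09. Gad1, an enzyme of GABA synthesis, was at 83.9 ± 8.93 and 109 ± 22.1 FPKM (SD, n = 5 and 7, log2 fold change 0.35, limma adjusted p = 0.899, exact permutation p = 0.0101), with 0.52 and 0.20 in the sets with fewer and more genes. Gad2, which encodes the second such enzyme, was at 67.2 ± 13.0 and 76.5 ± 19.6 FPKM (SD, n = 5 and 7). Tbx3, a T-box factor of ARC neurons, had a log2 fold change of -0.72 (limma adjusted p = 0.903), with -1.79 in the set with fewer genes against 0.16 in the set with more.

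**Figure D5:**
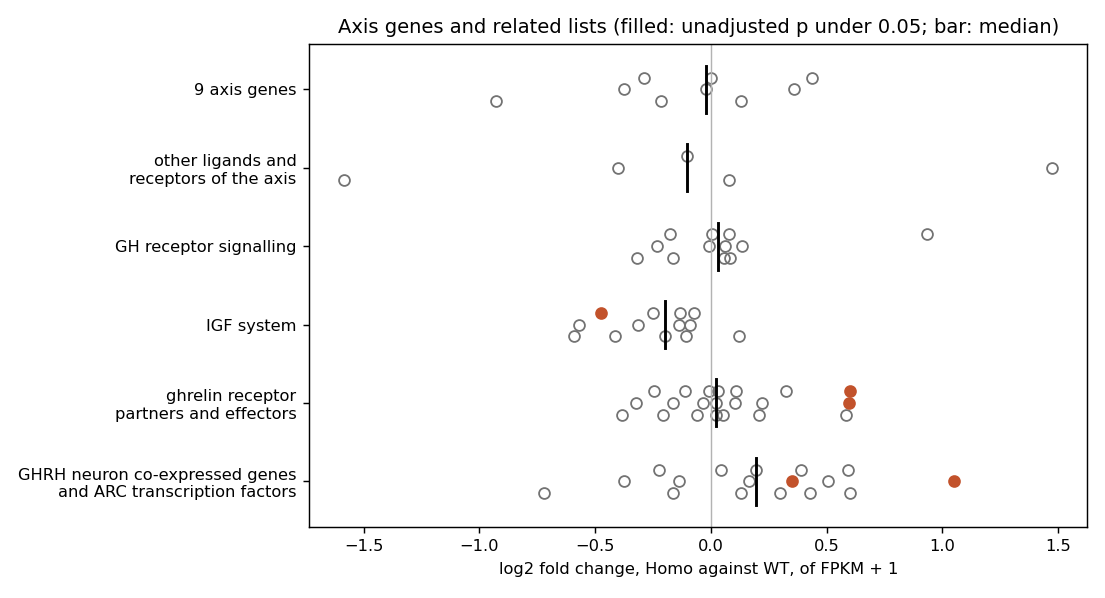
Log2 fold change of FPKM + 1, Homo against WT (horizontal axis), of the 9 genes and of every tested gene in the 5 related lists (rows), with 1 circle per gene, filled for an unadjusted p under 0.05, and a bar at the median of each list. Medians lie between -0.20 for the IGF system and 0.19 for the genes of GHRH neurons and ARC transcription factors, and the 5 filled circles are Grb10, Npy, Agrp, Nts and Gad1. Of all genes tested, 5.55% had an unadjusted p under 0.05.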

How the data were processed

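RNA of 12 libraries, 1 per mouse, was analyzed. Per the labels and the paper, RNA was extracted from laser-captured ARC of 14 µm sections, amplified with the NuGEN whole-transcriptome system, which does not mark strand, and sequenced on an Illumina HiSeq instrument. The submitters' processing notes name TopHat2 2.0.8, Cufflinks 2.2.1 and GRCm38. The authors deposited FPKM per gene and library, with 0 further columns of samples. No read counts came with them, so no count model was used.

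Values were taken as log2(FPKM + 1). Genes with a mean of at least 1 FPKM were tested with limma 3.58.1 (R 4.3.3; eBayes, trend and robust set on) by genotype alone, and adjusted by Benjamini-Hochberg over all 14017 genes. Single values were compared by exact permutation over all splits (smallest p 0.00126) and over those within the library sets (0.00476), and correlations with 100000 permutations. Folds understate changes of low genes. P-values measure the spread between these mice. The scripts were tested on simulated data.

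Depth was not given. The worth of 1 fragment per kilobase was read off the smallest steps between low values, with transcripts shortened by 180 bases, at 0.135 to 0.316 FPKM in the 7 libraries with fewer genes and 0.0853 to 0.123 in the other 5. In the 7, only 23.7% to 42.8% of low values lay within 0.1 of a whole number, so their fragment estimates are uncertain. No library was a copy of another. Markers came from lists of cell types.

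The members, lists and library sets were chosen with earlier results of these data known. Beside the 9 genes, the text names the 3 most abundant genes and the 2 with the smallest p of each list, the 3 genes closest to Ghrh, Sst, Ghsr and Gal, Prkag2 and Agrp. Genes below the filter and single libraries were picked once their values were known. Coordinates come from GENCODE M21 on GRCm38 (97.5% of tested identifiers found), promoters from RefSeq. Alternatives covered filters, pseudocount, scaling, variance model, array weights, the library set, each library left out and a replicate block. Plots were drawn with matplotlib 3.10.9.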

Additional observations from a re-analysis of the deposited data

Results flagged for a closer look

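Sstr2 in WT 5, at 7.01 FPKM, lay far from the other 4 WT libraries (3.44 to 4.40 FPKM). It was found by comparing the gap to the nearest library with the range of its group, in 18 groups (9 genes in each genotype), of which chance flags about 1 in 20.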

How the results depend on the processing

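None of the 9 genes reached an adjusted p under 0.05 under any alternative, and the smallest adjusted p was 0.658, for Gsx1. At an unadjusted p under 0.05 the count was 2 of 9 in the 7 libraries with fewer genes (Sst -0.63, Gsx1 -2.03), 1 in the 5 with more (Gal 1.13), and 0 to 1 with 1 library left out (Sst -0.47 without WT 3, Gsx1 -1.21 without WT 4 and -1.11 without Homo 6). Of all 14017 genes, 838 had an unadjusted p under 0.05 in the set with fewer genes (629 lower and 209 higher in Homo). In the set with more 710 did (144 lower and 566 higher), and 607 to 890 with 1 library left out. At an adjusted p under 0.05 it was 6 and 19 of all genes in those sets, and 1 to 3 with 1 library left out (3 without WT 2, 2 without Homo 4). Replicate numbers did not pair the mice (correlations of deviations -0.05 to 0.03). With a replicate block on WT 1 to 5 and Homo 1 to 5, 2 genes passed, and without the block on those 10 libraries 4 did. Without the block, 1 of the 9 (Gsx1 -1.25) had an unadjusted p under 0.05, as did 973 of all 14017 genes.

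Directions turned for 7 of the 9 genes, all but Sst and Sstr1. Ghr was -0.0034 with a pseudocount of 0.1, -0.32 in the set with fewer genes, -0.14 with and without the replicate block, and -0.095 to 0.15 with 1 library left out. Igf1r was 0.012 with quantile normalization, 0.0054 with median scaling, 0.0076 with the library set as covariate, 0.10 in the set with fewer genes, and -0.13 to 0.067 with 1 library left out. In the set with fewer genes Gal was -0.50 and Ghrh -0.42, and in the set with more Sstr2 was -0.010, Ghsr 0.17 and Gsx1 0.40. In that set the median of all genes was 0.13, against -0.08 in the set with fewer genes. The causes were not tested. With 1 library left out the ratio difference ranged from 0.43 to 0.87 for Ghrh to Sst, from -0.63 to -0.24 for Sstr1 to Sstr2 and from -1.20 to -0.76 for Ghsr to Agrp. With array weights Gsx1 was -0.39, Ghrh 0.71, Gal 0.66, Ghsr -0.21 and Sstr1 -0.18. In WT 1 to 5 against Homo 1 to 5, with and without the replicate block, Ghsr was -0.61, its lowest value under any alternative. A filter at a mean of 5 FPKM dropped Sstr2, Ghsr and Igf1r. The number of neighbors in level that differed (5) and of correlated pairs (1) held under a pseudocount of 0.1 and with each library left out. Low fragment numbers limit Gsx1 and Ghsr, and the intervals of Ghrh, Gal, Ghsr and Gsx1 reached beyond 2-fold.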
